A study of Arabidopsis thaliana with 11 samples.

Results

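Pericycle cells were compared with cortex cells from Arabidopsis roots that had been exposed to salt. The comparison rests on the 3 arrays of salt-treated pericycle cells and the 3 arrays of salt-treated cortex cells, 6 of the 11 arrays in the study, chosen by the marker line and growth condition in the sample labels. Pericycle cells came from the marker line J2731 and cortex cells from the marker line J1551. Seedlings were 7 days old in every group. Salt-treated seedlings had grown for 5 days without salt before 2 days of treatment. Day 6 was spent in 25 mM NaCl plus 0.22 mM CaCl2, and on day 7 these concentrations were raised to 50 mM and 0.375 mM. The other 5 arrays, 3 from J1551 and 2 from J2731, came from seedlings grown for 7 days without salt, and they served as the comparison without salt. Neither line's driver, reporter or genetic background is given in the sources used here. All groups shared the growth solution with sucrose, the digestion of roots to protoplasts for 30 min, the sorting of the protoplasts and the labelling of cDNA by a kit, so effects of digestion and sorting are present in every array. A biological sample was all the seedlings of a tank, so each array averages over many plants and the replicates are separate tanks.

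The cortex is the ground tissue between epidermis and endodermis, a layer of large vacuolated cells in which carbohydrate, protein and defence compounds are stored and turned over. The pericycle is the outermost cell layer of the vascular cylinder. Auxin-responsive pericycle cells next to the xylem poles divide to found lateral roots, and in the same layer ions pass toward the xylem. Sodium reaches the cortex before the central cylinder on its way to the shoot. The comparison asks which transcripts distinguished the tissues when both had been exposed to salt.

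Expression was given as log2 values for 22746 probe sets, a probe set being the group of array probes designed against 1 transcript or several alike. The cortex salt arrays correlated with each other at 0.993 to 0.994 and the pericycle salt arrays at 0.917 to 0.966. The median standard deviation of a probe set was 0.139 in cortex salt and 0.365 in pericycle salt samples. Pericycle salt replicate 1 stood apart, with correlations of 0.917 and 0.919 to the other arrays of its group, an array weight of 0.171 against 0.436 and 0.896 for those arrays, and the largest 3' minus 5' signal difference of the GAPDH control, 0.995. The mean of that difference, a sign of RNA quality, was 0.778 ± 0.0873 (SD, n = 3) in cortex salt and 0.703 ± 0.265 (SD, n = 3) in pericycle salt samples. Each SE of a difference below assumes the same spread in all groups. Fits with array weights and with the salt arrays alone were run beside the main fit. Beyond those fits, whether the spread of the pericycle arrays or their RNA quality plays a part in a given result was not tested. Where leaving out pericycle salt replicate 1 ended a call or moved a difference by over 1.5 times, the value without it is given as well.

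The cell type labels were set against marker genes, few of which had a probe set in the gene annotation used. Of 11 pericycle markers, 2 were measured. LBD16, a LOB-domain transcription factor that promotes the first divisions of lateral root founder cells, was high on all pericycle arrays. LBD29, a close relative, lay under the dim limit, which was set at a log2 value of 2.81, the 40th percentile of the mean over all arrays. Of 7 cortex markers, 6 were measured, and 0 of the 6 were higher in cortex. AT1G09750 read 4.01, 5.11 and 4.10 in cortex salt and 5.11, 5.11 and 6.12 in pericycle salt samples. AT5G02000 read 5.29, 6.15 and 5.18 in cortex and 6.90, 4.86 and 6.08 in pericycle. These groups touched or overlapped, and the other 4 cortex markers were dim, so the label of the cortex samples rests on the line and not on these genes. How pure the sorted pools were was not measured, and line and cell type cannot be told apart, since each cell type came from 1 line.

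Markers of neighbouring tissues were also read. The only measured phloem marker of 10, OPS (OCTOPUS, a polar membrane protein of the developing phloem), read 3.99, 4.47 and 4.32 in cortex salt and 7.80, 6.93 and 6.51 in pericycle salt samples. Its groups were far apart, with a log2 difference of 2.82 ± 0.325 (SE, adjusted p = 2.69e-04). The only measured endodermis marker, GSO1, a receptor kinase of Casparian strip formation, read 2.06, 2.25 and 2.13 in cortex and 2.54, 2.75 and 4.04 in pericycle and did not pass (adjusted p = 0.145). The summed level of 4 root hair and epidermis markers, as a mean log2 value per array, ran from 3.09 to 3.87 in cortex salt and from 2.80 to 4.27 in pericycle salt samples, and 0 of the 4 passed. None of the listed xylem, procambium or root cap markers was measured. The part of neighbouring cells in the differences below was not tested. In sorted pools, fewer cells of a type and less RNA per cell cannot be told apart.

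Under salt, 1764 probe sets were higher in pericycle and 2302 were higher in cortex. Together these were 4066 of 22746, or 17.9%, split into 7.76% higher in pericycle and 10.1% higher in cortex. Differences were fitted in limma on all 11 arrays and counted at a Benjamini-Hochberg adjusted p under 0.05 with no fold limit. The median log2 difference was 1.67 among probe sets higher in pericycle and -1.30 among those higher in cortex. Differences of at least 8-fold numbered 274 toward pericycle and 97 toward cortex. The 3 arrays of a group lay wholly above the 3 of the other for 1757 and 2295 of the called probe sets. Across all probe sets the same separation occurred in 34.2%. Of the probe sets higher in pericycle, 523 had a cortex salt mean under the dim limit, and of those higher in cortex, 253 had a pericycle salt mean under it, so their folds can be understated. Without pericycle salt replicate 1, 1564 and 1925 of the called probe sets passed in the same direction.

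Genes were counted by 1 probe set each, the one with the highest mean. Of 13356 such genes, 883 or 6.61% were higher in pericycle and 1228 or 9.19% were higher in cortex. The shares for gene lists below are to be read against these percentages. The lists of GH3, GH9, ATG8, SKS, NET, VPE, PUB and calmodulin-like genes were written after values had been seen. So were those of LPR oxidases, of the cytoskeleton, of nuclear photosynthesis genes and of the flavoprotein pathway, and those said to be so below. All of these lists are descriptions. Among nuclear genes with a symbol, 139 of 1466 were higher in pericycle and 164 in cortex. The remaining called genes outside the plastid genome, 686 and 1064, are known by locus code only.

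**Figure D1:**
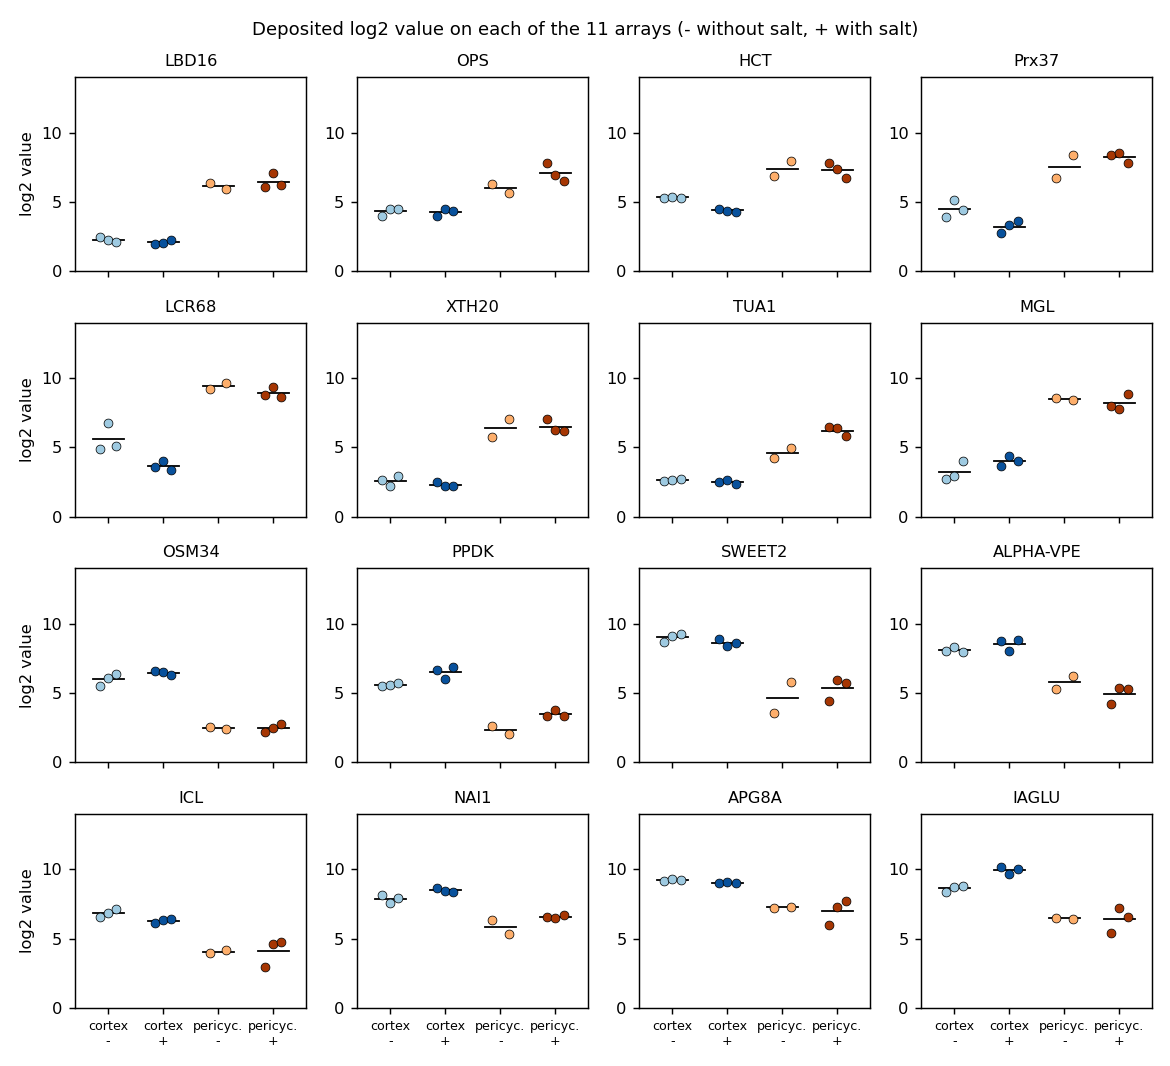
Deposited log2 value (y axis, 0 to 14 in each panel) of 16 genes on each of the 11 arrays. Points are single arrays, black lines are group means, and the x axis gives cortex and pericycle samples without (-) and with (+) salt. In the first 8 genes all pericycle salt arrays lie above all cortex salt arrays, and in the other 8 the order is turned.

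Lateral root and auxin genes were measured by only 7 of the 32 genes listed, of which 3 were higher in pericycle (42.9%) and 1 was higher in cortex. LBD16 read 1.93, 2.00 and 2.26 in cortex salt and 6.04, 7.07 and 6.20 in pericycle salt samples. The cortex arrays lay under the dim limit and the pericycle arrays more than 3 log2 units above them. The log2 difference was 4.37 ± 0.27 (SE, adjusted p = 9.03e-06), and it was 3.88 without salt.

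GH3.3 and WES1 (GH3.5) encode enzymes that join auxin to amino acids and are themselves induced by auxin. WES1 read 4.44, 5.14 and 5.04 in cortex and 7.21, 7.27 and 7.21 in pericycle, a log2 difference of 2.36 ± 0.292 (SE, adjusted p = 4.11e-04). The 3 pericycle arrays nearly coincided and did not overlap the cortex arrays. GH3.3 read 1.98, 2.16 and 1.79 in cortex and 6.05, 3.26 and 3.95 in pericycle, so replicate 1 was far above the other arrays of its group. Its log2 difference of 2.45 (adjusted p = 0.0135) became 1.63 (adjusted p = 0.0015) without that replicate. GH3.1, of the same family, was the member higher in cortex, with a log2 difference of -0.92 ± 0.24 (SE, adjusted p = 0.0248). In a fit of the 6 salt arrays alone, GH3.3 and GH3.1 no longer passed, which left 2 members higher in pericycle and 0 in cortex. IAA18, an auxin response repressor of the Aux/IAA family, read 3.00, 3.18 and 3.29 in cortex and 5.05, 5.00 and 4.37 in pericycle. It was 1 of 7 measured Aux/IAA genes and the only 1 that passed, with a log2 difference of 1.65 ± 0.229 (SE, adjusted p = 8.08e-04).

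IAGLU, which attaches glucose to the auxin indole-3-acetic acid, was among the 10 genes with a symbol that were highest in cortex. It read 10.17, 9.66 and 9.99 in cortex and 5.40, 7.19 and 6.57 in pericycle. No array overlapped, and the log2 difference was -3.55 ± 0.377 (SE, adjusted p = 1.66e-04). Signalling peptides were split. RALFL32, a peptide of the rapid alkalinization factor family, read 3.16, 3.26 and 3.84 in cortex and 6.77, 8.25 and 7.06 in pericycle (log2 difference 3.94, adjusted p = 8.13e-05). RALFL34, of the same family and with a described role in lateral root initiation, was higher in cortex, with a log2 difference of -1.44 ± 0.278 (SE, adjusted p = 0.00556). Of the 15 CLE, RALF and CEP peptide genes measured, 1 was higher in pericycle and 2 were higher in cortex, shares of 6.67% and 13.3%.

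Genes of the cell wall were read in several lists, which did not share a direction. None of the 7 cellulose synthase and CSL genes passed in either direction (median log2 difference -0.20). Of 4 SKS genes, a family of multicopper-oxidase-like wall proteins, 1 was higher in pericycle and 2 were higher in cortex. With the 6 salt arrays alone, the SKS count toward cortex was 1. XTH enzymes cut and rejoin xyloglucan, the chains that tie cellulose together, and 3 of 9 measured were higher in pericycle and 0 in cortex. XTH20 read 2.49, 2.21 and 2.23 in cortex salt and 7.08, 6.24 and 6.16 in pericycle salt samples. All cortex arrays were dim and no array overlapped (log2 difference 4.18 ± 0.354 SE, adjusted p = 4.36e-05). XTH21 and XTH16 differed by 2.14 and 1.54 (adjusted p = 0.00751 and 0.00655). Without salt, 3 XTH genes were higher in pericycle and 3 in cortex. Expansins, which loosen walls, had 2 of 14 members higher in pericycle, EXPB1 at 2.46 and EXPA15 at 2.01, and 1 higher in cortex, EXPA9 at -1.05. EXPA9 read 11.07, 11.07 and 11.13 in cortex and 9.93, 10.23 and 9.98 in pericycle, so both tissues gave a strong signal.

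TBL proteins are a family that includes acetyltransferases of wall polysaccharides, and 4 of 22 (18.2%) were higher in pericycle and 0 in cortex. The count toward cortex was 1 without pericycle salt replicate 1 and 3 with array weights, while 4 remained the count toward pericycle. TBL38 read 3.5, 3.28 and 3.95 in cortex and 7.66, 7.3 and 6.65 in pericycle, a log2 difference of 3.63 ± 0.317 (SE, adjusted p = 5.18e-05). TBL37, TBL36 and TBL34 differed by 2.17, 2.75 and 1.39. TBL36 was high in replicate 1 (6.37, against 3.78 and 4.37), and its difference was 1.98 without it. GH9 enzymes hydrolyse glucans of the wall. Of 15 measured, 3 were higher in pericycle and 0 in cortex: GH9B13 at 2.01, GH9B8 at 1.98 and GH9C2 at 1.22. The first of these fell to 1.31 without replicate 1 and still passed (adjusted p = 0.00897). Its call was lost with the 6 salt arrays alone and without cortex salt replicate 1 or 2.

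Phenolic and lignin genes were few in the annotation. HCT, an acyltransferase of the lignin pathway and the only measured gene of 17 listed, read 4.51, 4.33 and 4.27 in cortex and 7.78, 7.39 and 6.71 in pericycle. The groups were well apart, by 2.92 ± 0.315 (SE, adjusted p = 1.81e-04). Both measured class III peroxidases, secreted enzymes that couple phenolics and handle hydrogen peroxide, were higher in pericycle. Prx37 read 2.73, 3.3 and 3.6 in cortex and 8.38, 8.51 and 7.78 in pericycle, a 32.4-fold difference (log2 5.02 ± 0.444 SE, adjusted p = 5.63e-05). PRX52 read 2.22, 2.34 and 2.13 in cortex and 5.08, 4.99 and 3.03 in pericycle (log2 2.14, adjusted p = 0.00963), and it no longer passed in a fit of the salt arrays alone without pericycle salt replicate 1.

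Among 14 tubulins, actins and LIM proteins, 5 (35.7%) were higher in pericycle and 0 in cortex, with a median log2 difference of 0.408 against 0.0219 over all genes. TUA1, an alpha tubulin, read 2.52, 2.64 and 2.36 in cortex salt and 6.44, 6.38 and 5.82 in pericycle salt samples. The difference was 3.71 ± 0.231 (SE, adjusted p = 9.21e-06) with no overlap. ACT11, an actin, read 3.71, 4.61 and 4.07 in cortex and 5.29, 7.46 and 7.46 in pericycle, with replicate 1 the lowest of the pericycle arrays. Its difference was 2.61 with that array and 3.33 without it. WLIM1, which bundles actin filaments, differed by 2.45 ± 0.246 (SE, adjusted p = 1.19e-04), and without salt by 0.64 (adjusted p = 0.172). The change between the conditions, 1.82, did not pass (adjusted p = 0.0593). WLIM2a differed by 1.23 (adjusted p = 0.0263), a call that was lost in 6 of 20 other settings. NET proteins, which link actin to membranes, were split, with 3 of 10 higher in pericycle, led by NET1C at 2.33, and 3 higher in cortex, led by NET3A at -1.78.

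Genes of sulfur metabolism were higher in pericycle, 5 of 7 measured and 0 in cortex, with a median log2 difference of 1.15. This list was put together after the values had been seen. MGL, a lyase that breaks methionine down, read 3.65, 4.34 and 4.04 in cortex and 7.98, 7.80 and 8.82 in pericycle. The groups were 4.19 ± 0.367 (SE, adjusted p = 5.24e-05) apart on the log2 scale, 18.3-fold. SIR, the sulfite reductase, read 7.26, 7.31 and 7.75 in cortex and 8.61, 8.40 and 8.77 in pericycle, a smaller difference of 1.15 (adjusted p = 0.00494). SUFE2, which activates sulfur transfer for iron-sulfur clusters, differed by 2.23 and APS3, an ATP sulfurylase, by 1.38. The call of APS3 was lost in 5 of 20 other settings, among them those without any 1 of the cortex salt arrays. The same 5 genes were higher in pericycle without salt. BCAT4, which starts the lengthening of methionine for glucosinolates, read 2.80, 2.29 and 2.09 in cortex and 6.36, 4.17 and 5.08 in pericycle, a difference of 2.82 (adjusted p = 0.00487) that was 2.24 without replicate 1.

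Defence and detoxification genes stood on both sides. LCR68 and LCR69 encode plant defensins, small cysteine-rich proteins, and had the largest differences toward pericycle of all genes with a symbol. LCR68 read 3.6, 4.03 and 3.38 in cortex and 8.78, 9.33 and 8.67 in pericycle (log2 5.26 ± 0.439 SE, adjusted p = 4.06e-05). LCR69 read 4.14, 4.44 and 3.83 in cortex and 9.83, 9.30 and 9.01 in pericycle (log2 5.24, adjusted p = 2.36e-05). Both groups of arrays were separated by more than 4 log2 units, and 11 of the 13 defensin and LCR genes measured did not pass. The glutathione transferases GSTU18 and GSTU20, which conjugate toxic compounds, were higher in pericycle by 3.65 and 3.56, and GSTU22 was higher in cortex, with a log2 difference of -2.07. Toward cortex the largest difference of a gene with a symbol was that of OSM34, an osmotin-like protein of the PR-5 family. It read 6.58, 6.54 and 6.30 in cortex and 2.19, 2.50 and 2.76 in pericycle, where every array was dim (log2 -3.99 ± 0.231 SE, adjusted p = 6.61e-06). JAL33, a jacalin-related lectin, read 10.15, 10.09 and 10.19 in cortex and 4.58, 6.50 and 7.58 in pericycle. Its difference was -3.92 with replicate 1 and -3.10 without it.

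Several other genes were strongly higher in pericycle. B120, a lectin receptor kinase, read 1.99, 2.04 and 2.25 in cortex and 6.60, 6.15 and 6.01 in pericycle, a log2 difference of 4.16 ± 0.249 (SE, adjusted p = 7.81e-06). PMEAMT, a methyltransferase that makes the headgroup of phosphatidylcholine, and WNK9, a WNK-type kinase, differed by 4.09 and 3.86. Tetraspanins, membrane proteins that organise protein complexes, had 3 of 15 members higher in pericycle, with TET6 at 3.81 and TET5 at 3.3, and TET3 higher in cortex at -0.87. LPR2, an oxidase that acts in the root's growth response to low phosphate, read 2.24, 2.61 and 2.29 in cortex and 5.58, 5.80 and 5.46 in pericycle (log2 3.24, adjusted p = 2.38e-05). Its relative LPR1 differed by 1.27, but by 0.77 without pericycle salt replicate 1, and its call was lost in 10 of 20 other settings. The 6 genes known by locus only with the largest measured differences toward pericycle were AT3G28600 (log2 5.54), AT2G25450 (5.39), AT5G49640 (5.35), AT5G45500 (5.17), AT5G43180 (5.08) and AT4G15390 (4.75). For the last 5 the cortex salt mean lay under the dim limit, so these differences can be understated and their order is not to be read. AT2G25450 read 2.76, 2.54 and 2.86 in cortex and 8.55, 8.05 and 7.74 in pericycle.

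**Figure D2:**
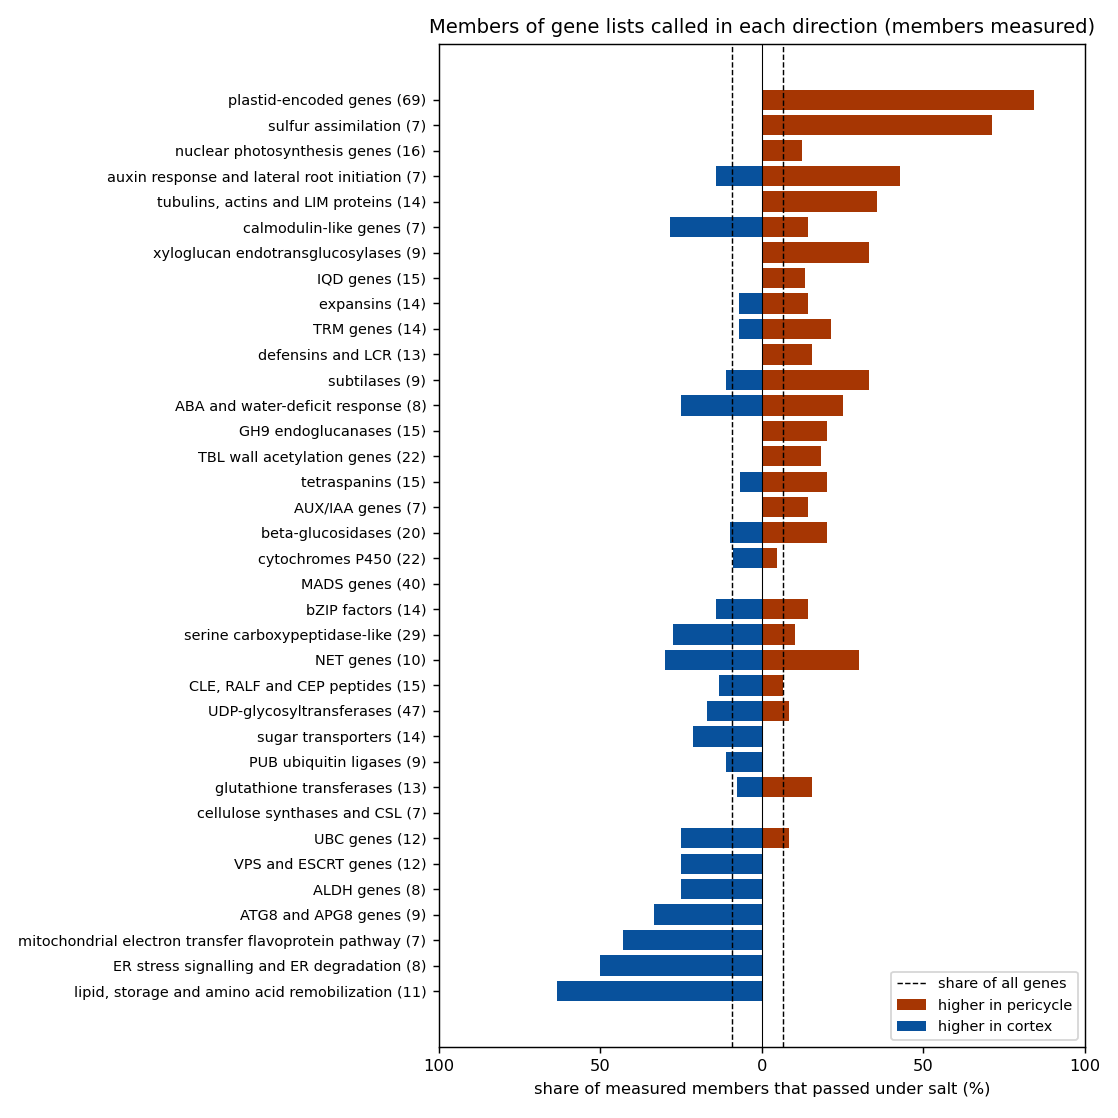
Share of the measured members of each gene list that passed under salt, higher in pericycle to the right and higher in cortex to the left. Lists with 7 or more measured members are shown in order of their median difference, the number measured is in brackets, and dashed lines mark the shares of all genes, 6.61% and 9.19%. Plastid-encoded genes stand at the top with 84.1% higher in pericycle, and the remobilization list at the bottom with 63.6% higher in cortex. Some lists shown, the remobilization list among them, were written after values had been seen, so their places are descriptions.

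Genes of the plastid genome were higher in pericycle almost as a body. Of 69 plastid-encoded genes measured, 58 (84.1%) were higher in pericycle and 0 were higher in cortex. All 69 had a positive log2 difference, from 0.52 to 3.5 with a median of 2.32, and in 64 the arrays did not overlap. Many plastid genes are transcribed together, so the 69 are not separate observations. The mean log2 value over the 69 genes was 5.69, 5.44 and 5.46 in cortex salt samples. It was 7.96, 8.33 and 6.88 in pericycle salt samples, with replicate 3 the lowest of its group and still above every cortex array. Without salt, 40 passed, all higher in pericycle, the median was 1.64, and 0 of the 69 had a difference that itself differed between the conditions. Counts ran from 52 higher in pericycle with the 6 salt arrays alone through 54 without pericycle salt replicate 1 to 67 with array weights.

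The genes psaA and psaB encode the core of photosystem I. The gene psaB read 7.31, 7.14 and 6.94 in cortex and 10.95, 11.33 and 9.60 in pericycle, a log2 difference of 3.5 ± 0.395 (SE, adjusted p = 2.34e-04). psaA and psbH, a small photosystem II subunit, differed by 3.36 and 3.08. Of 16 nuclear genes of photosynthesis, 9 were dim and 2 passed, both higher in pericycle, and the median log2 difference was 0.702. LHCB4.1, a light-harvesting protein, read 3.07, 3.16 and 3.13 in cortex and 6.19, 7.72 and 4.00 in pericycle, so the order of the pericycle arrays was that of the plastid genes. Its call (log2 2.85, adjusted p = 0.0196) was lost in 5 of 20 other settings, as was that of TROL, a thylakoid protein, at 2.04. Without pericycle salt replicate 2 the TROL difference was 1.36. How the amplification and labelling treat plastid transcripts was not tested.

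**Figure D3:**
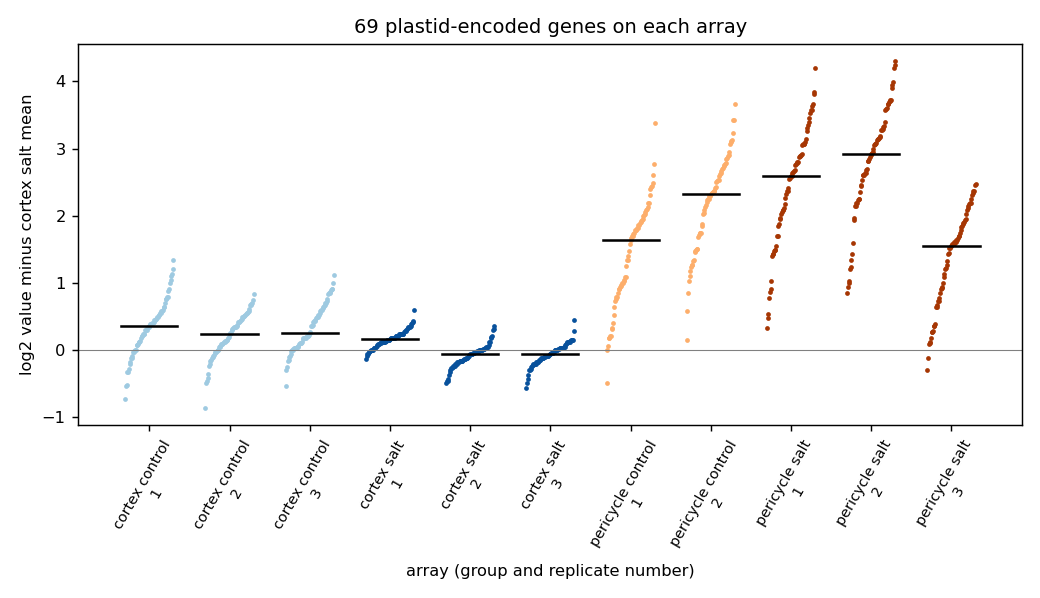
Each point is a plastid-encoded gene on an array, as its log2 value minus the gene's mean over the 3 cortex salt arrays (y axis), sorted within the array, and black lines are medians. Arrays are on the x axis by group and replicate. The medians of all 5 pericycle arrays lie above those of all 6 cortex arrays, and pericycle salt replicate 3 lies lower than replicates 1 and 2.

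A list of genes for the mobilisation of stored carbon and nitrogen leaned toward cortex. In this list of 11, put together by gene symbol after the values had been seen, 7 (63.6%) were higher in cortex and 0 in pericycle. The median log2 difference was -1.30 under salt and -1.21 without it. PPDK, which converts pyruvate to phosphoenolpyruvate, read 6.64, 5.99 and 6.86 in cortex and 3.33, 3.74 and 3.3 in pericycle (log2 -3.04 ± 0.256 SE, adjusted p = 4.25e-05). ASPGB1, an asparaginase that frees nitrogen from asparagine, read 8.55, 8.07 and 8.46 in cortex and 5.32, 4.59 and 5.87 in pericycle (log2 -3.10, adjusted p = 2.28e-04). Neither gene overlapped between the groups. ICL, the isocitrate lyase of the glyoxylate cycle, read 6.09, 6.32 and 6.42 in cortex and 2.97, 4.57 and 4.76 in pericycle. SDP1, a lipase that starts the breakdown of storage oil, read 8.79, 8.53 and 8.86 in cortex and 5.54, 7.02 and 6.77 in pericycle. In both genes pericycle salt replicate 1 was the lowest array. The difference of ICL was -2.18 with that replicate and -1.62 without it, and that of SDP1 was -2.28 (adjusted p = 0.00228) and -1.83. The other 3 that passed, named after their values were seen, were ACS at -1.30, DPE1 at -1.77 and PM-ANT at -0.65. The part of PM-ANT, a nucleotide transporter, in mobilising stores was not checked.

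The electron transfer flavoprotein pathway carries electrons from the breakdown of branched-chain amino acids to the respiratory chain. Of 7 genes measured, 3 were higher in cortex and 0 in pericycle. ETFALPHA read 5.80, 5.77 and 5.63 in cortex and 3.93, 4.28 and 4.64 in pericycle (log2 -1.45 ± 0.234 SE, adjusted p = 0.00201). ETFQO and IVD differed by -1.33 and -1.14. The call of ETFQO was lost in 3 of 20 other settings, and with the 6 salt arrays alone 2 of the 7 genes were higher in cortex. Of the 9 genes of the ATG8 family, whose proteins are attached to autophagosome membranes, 3 were higher in cortex and 0 in pericycle, with a median of -0.667. APG8A read 9.04, 9.07 and 9.01 in cortex and 5.98, 7.26 and 7.72 in pericycle. Its difference was -2.06 with replicate 1 and -1.55 without it, and it passed both times. APG8H differed by -2.05 with that replicate and by -1.41 without it, and ATG8C differed by -0.77.

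Vacuolar and transport genes gave a mixed picture. ALPHA-VPE, a vacuolar protease that processes other vacuolar proteins, read 8.72, 8.00 and 8.82 in cortex and 4.23, 5.35 and 5.26 in pericycle (log2 -3.56 ± 0.361 SE, adjusted p = 1.22e-04). BETA-VPE, of the same family, had the opposite direction, with 2.28, 2.85 and 2.93 in cortex and 5.43, 5.58 and 4.68 in pericycle (log2 2.54, adjusted p = 0.0013). GAMMA-VPE differed by -0.70, a call lost in 5 of 20 other settings. SWEET2, a sugar transporter of the vacuole membrane, read 8.92, 8.41 and 8.58 in cortex and 4.44, 5.94 and 5.73 in pericycle, a 9.65-fold difference (log2 -3.27 ± 0.54 SE, adjusted p = 0.0023). SWEET17 and SWEET16, vacuolar as well, differed by -1.35 and -1.20, and 11 of 14 SWEET genes did not pass. The call of SWEET16 was lost without pericycle salt replicate 1 (adjusted p = 0.0515) and without any 1 of the 3 cortex salt arrays.

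Serine carboxypeptidase-like proteins include proteases and acyltransferases, and 8 of 29 (27.6%) were higher in cortex and 3 (10.3%) in pericycle. scpl25 read 9.42, 9.28 and 9.43 in cortex and 3.94, 5.95 and 6.45 in pericycle (log2 -3.93 ± 0.514 SE, adjusted p = 5.59e-04). Pericycle salt replicate 1 was the lowest, and the difference was -3.18 without it. scpl28 and SCPL34 differed by -2.81 and -2.62, and SCPL45 by 2.44 in the other direction. UDP-glycosyltransferases, which attach sugars to hormones and secondary compounds, had 8 of 47 members (17%) higher in cortex and 4 (8.51%) in pericycle. Without pericycle salt replicate 1 these counts were 10 and 2, and with the 6 salt arrays alone 8 and 2. UGT72E1, UGT73B5 and UGT73B4 differed by -2.89, -2.20 and -2.01 and UGT73C7 by 2.15. The SKS genes sks16 and sks15 differed by -3.62 and -2.70. The sks15 value rested in part on replicate 1, which read 2.28 against 5.15 and 5.65, and was -1.66 without it. The sks15 call held without that array (adjusted p = 0.00409). It was lost with the 6 salt arrays alone and without any 1 of the 3 cortex salt arrays.

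Endoplasmic reticulum bodies, compartments of cabbage relatives that store beta-glucosidases active against glucosinolates and related compounds, were represented by 4 genes, a list put together after the values had been seen. All 4 were higher in cortex with all arrays, and 3 were with the 6 salt arrays alone. NAI1, the transcription factor that switches these bodies on, read 8.63, 8.45 and 8.35 in cortex and 6.53, 6.51 and 6.67 in pericycle (log2 -1.90 ± 0.256 SE, adjusted p = 6.68e-04). NAI2, a component of the bodies, read 9.74, 9.55 and 9.85 in cortex and 7.41, 7.83 and 9.17 in pericycle (log2 -1.58, adjusted p = 0.015), and its call was lost in 4 of 20 other settings. The beta-glucosidases BGLU25 and PYK10 differed by -1.52 and -0.68. The pericycle signal of PYK10 was itself strong, at 10.42, 10.24 and 10.58.

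Of 8 genes of endoplasmic reticulum stress signalling and protein degradation, also listed after the values had been seen, 4 were higher in cortex and 0 in pericycle, with a median of -0.958. Without pericycle salt replicate 1, 5 were higher in cortex and 1 in pericycle. Without salt these counts were 2 and 1, with a median of -0.367. UBC32, a ubiquitin-conjugating enzyme of that degradation route, read 7.73, 7.32 and 7.59 in cortex and 6.29, 6.44 and 6.27 in pericycle (log2 -1.21 ± 0.154 SE, adjusted p = 4.77e-04). BZIP60 and BZIP28, transcription factors of the response to unfolded proteins, differed by -1.01 and -0.70, and DER2.1 by -0.93. The calls of BZIP60 and DER2.1 were each lost in 3 of 20 other settings.

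WRKY6 and WRKY22, transcription factors of defence and senescence, were higher in cortex and were 2 of 6 WRKY genes measured. WRKY6 read 9.08, 9.19 and 9.57 in cortex and 7.01, 7.37 and 7.73 in pericycle (log2 -1.91 ± 0.232 SE, adjusted p = 3.56e-04), and WRKY22 differed by -1.55. EIN3, a central ethylene response factor, read 9.16, 8.97 and 9.38 in cortex and 7.89, 7.73 and 8.37 in pericycle (log2 -1.17, adjusted p = 0.00337). JRG21, a jasmonate-regulated gene and 1 of 2 jasmonate genes measured, differed by -2.23. PUB22, a ubiquitin ligase of the drought response, differed by -1.92 and was the only 1 of 9 PUB genes that passed. Of 7 calmodulin-like genes, 2 were higher in cortex, with CML30 at -2.36, and CML42 was higher in pericycle at 0.91, or 0.60 (adjusted p = 0.067) without pericycle salt replicate 1. Abscisic acid and water-deficit genes had no common direction. Of 8 measured, COR47 (0.57) and DI21 (0.52) were higher in pericycle, and OSM34 and M10 (-1.05) were higher in cortex. COR47, a dehydrin, read between 11.55 and 11.66 in cortex and between 12.06 and 12.24 in pericycle, high in both tissues. The call of DI21 was lost in 14 of 20 other settings. All 40 MADS genes measured stayed without a call, the largest difference being that of AGL79 at 2.21 (adjusted p = 0.11). A second probe set of AGL79 gave 0.05, so its probe sets disagree.

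The 6 genes known by locus only with the largest measured differences toward cortex were AT4G01240 (log2 -4.71), AT1G51750 (-4.30), AT1G66860 (-4.28), AT1G79770 (-3.87), AT5G53500 (-3.84) and AT1G29240 (-3.79). AT1G66860 and AT1G29240 had pericycle salt means under the dim limit, so their differences can be understated. AT4G01240 read 9.19, 9.01 and 9.37 in cortex and 3.08, 4.42 and 5.95 in pericycle, so the pericycle arrays varied widely and still lay below the cortex arrays. Its log2 difference was -4.71 with pericycle salt replicate 1 and -4.0 without it. The probe set of AT1G51750 is of a kind that can match several related transcripts, so that value may be shared. AT5G53500 read 8.94, 8.43 and 8.68 in cortex and 4.69, 4.68 and 5.16 in pericycle.

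The same contrast was then read for the 5 arrays from plants without salt, which are separate tanks. Both contrasts came from the 1 fit of all 11 arrays and share each probe set's variance, so calls in both are not independent. Without salt, 14.9% of all probe sets differed between the tissues. Of the 1764 probe sets higher in pericycle under salt, 905 were called the same way without salt, 843 were not called and 16 were called the opposite way. Of the 2302 higher in cortex, 1042, 1252 and 8 fell into these classes. The sign was the same without salt in 88.3% and 92% of them, against 68.7% of all probe sets. Across probe sets the differences with and without salt correlated at 0.709, a description over probe sets of the same arrays, which are not independent of each other.

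**Figure D4:**
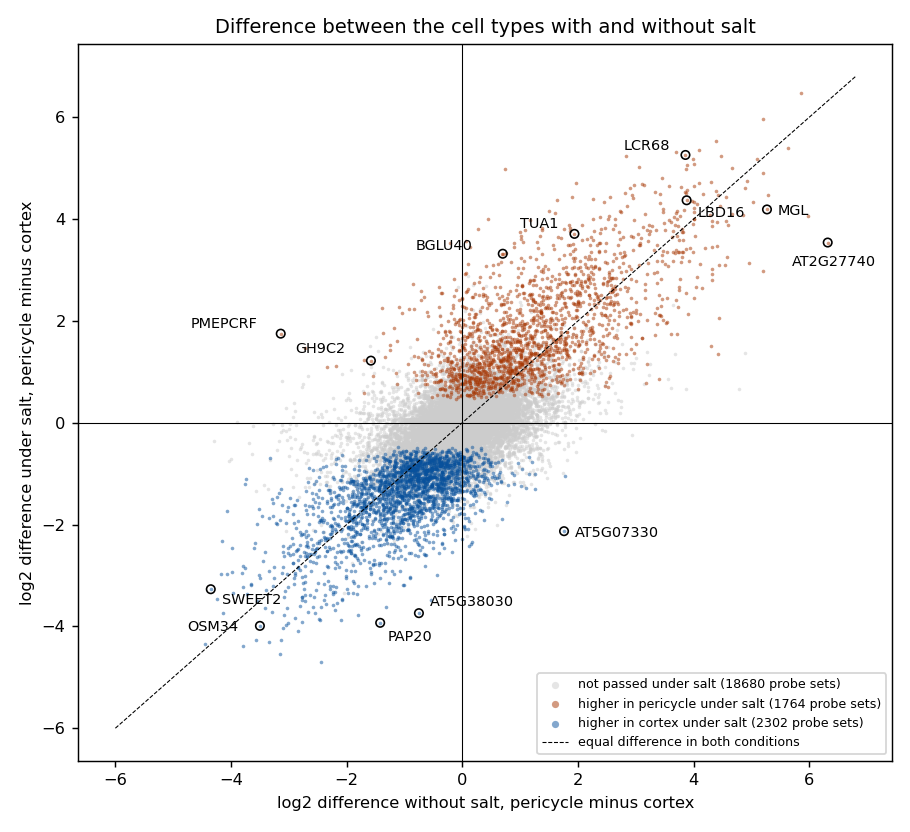
Log2 difference of pericycle minus cortex under salt (y axis) against the same difference without salt (x axis) for 22746 probe sets. Colours show probe sets that passed under salt, 1764 higher in pericycle and 2302 higher in cortex, and circles mark named genes. LBD16 and OSM34 lie near the dashed line of equal difference. BGLU40, PAP20, AT5G38030 and AT2G27740 lie well off it, and PMEPCRF, GH9C2 and AT5G07330 lie on opposite sides of 0 in the conditions.

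A difference between tissues that itself differed between salt and control was found in 190 probe sets, 0.835% of those tested, and 128 of these were also called under salt. Among probe sets higher in pericycle the difference was larger with salt in 82 and smaller in 10. Among those higher in cortex it was larger in 26 and smaller in 10. Single arrays moved this count widely, down to 53 when cortex salt replicate 3 was left out and up to 635 when pericycle control replicate 1 was. Most genes described above were not among them.

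PMEPCRF, a pectin methylesterase that changes wall pectin, had a mean of 7.28 in cortex and 4.14 in pericycle without salt. Under salt it read 4.07, 4.24 and 4.28 in cortex and 6.18, 6.07 and 5.59 in pericycle. The tissue that was higher was thus cortex without salt (log2 -3.14) and pericycle with it (log2 1.75), and the change of 4.89 passed (adjusted p = 0.003). GH9C2, a glucanase of the wall, likewise went from -1.58 to 1.22, a change of 2.80 (adjusted p = 0.00358). AT3G22240 and AT3G18560 went from -2.19 to 1.12 and from -1.10 to 2.26. In each of these 4 genes the cortex mean was lower with salt than without. The pericycle mean was 4.14 without and 5.94 with salt in PMEPCRF, and 5.33 and 7.17 in GH9C2. It differed little in AT3G22240 (5.33 and 5.54) and AT3G18560 (5.08 and 5.40), whose pericycle arrays overlapped between the conditions.

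BGLU40, a beta-glucosidase, read 2.38, 1.99 and 1.88 in cortex and 4.80, 6.14 and 5.27 in pericycle under salt. Its difference was 3.32 ± 0.307 (SE, adjusted p = 7.21e-05) with salt and 0.70 (adjusted p = 0.229) without it, and the change of 2.62 passed (adjusted p = 0.0352). PAP20, a purple acid phosphatase, read 6.68, 6.90 and 6.8 in cortex and 2.29, 3.36 and 2.95 in pericycle under salt. Its cortex mean was 3.55 without salt, so the difference widened from -1.42 to -3.93 (change -2.51, adjusted p = 0.0481). AT5G38030 did the same, from -0.75 to -3.74. AT2G27740 stayed higher in pericycle but by less, with a log2 difference of 6.32 without salt and 3.54 with it (change -2.79, adjusted p = 0.0292). IAA29, an auxin response repressor named here after its values were seen, had the widest change of difference among the Aux/IAA genes measured. It read 2.16, 2.1 and 2.77 in cortex and 2.65, 2.71 and 3.68 in pericycle under salt, where it did not pass (log2 0.67, adjusted p = 0.318), against a difference of 4.78 without salt (change -4.11, adjusted p = 0.0169).

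**Figure D5:**
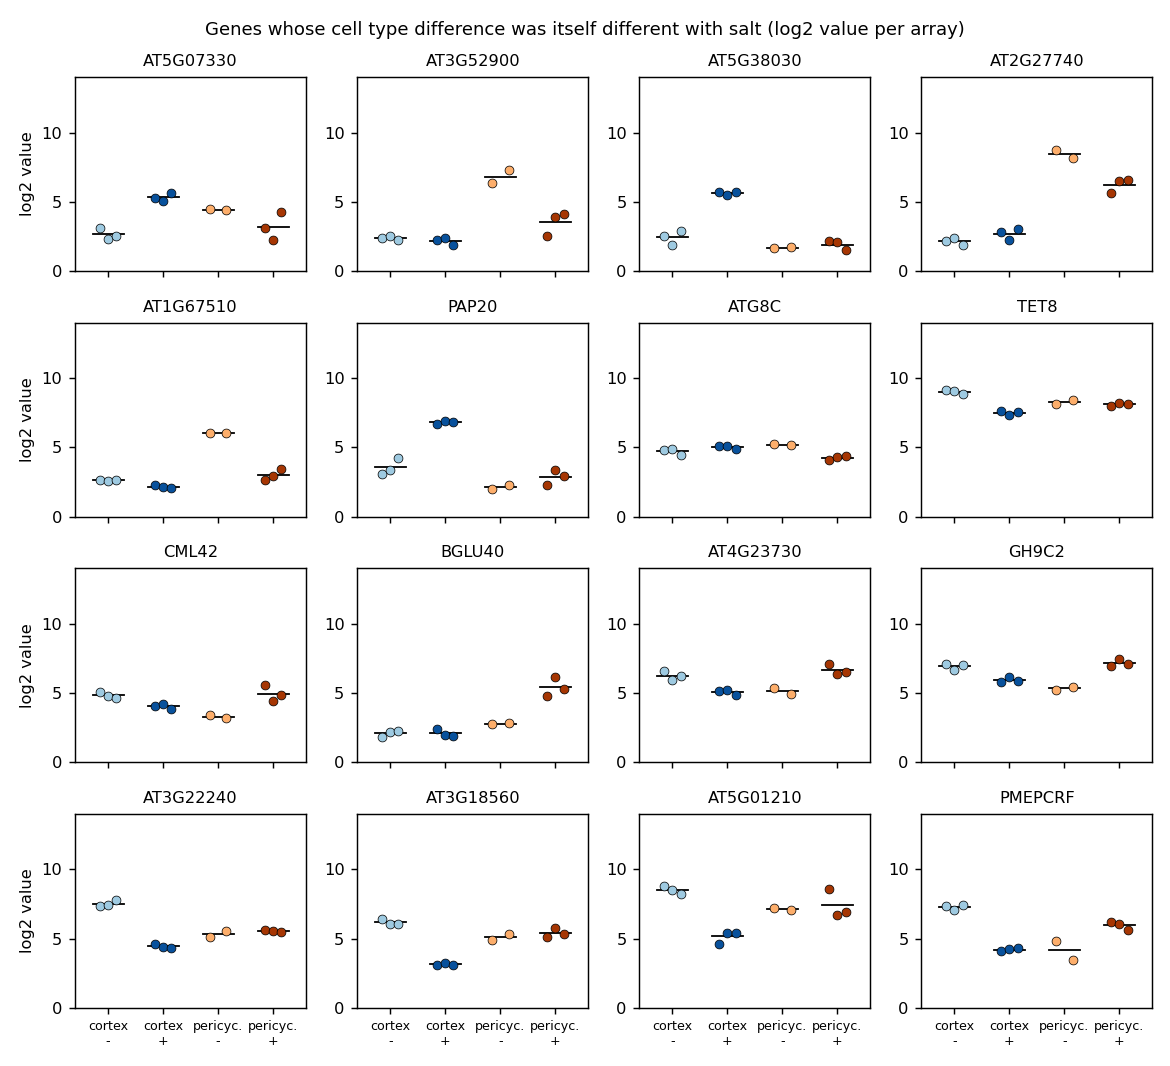
Log2 value (y axis, 0 to 14 in each panel) on each array for the 16 named genes whose tissue difference itself differed with salt, ordered from the most negative to the most positive change. Points are arrays, black lines are group means, and the x axis gives cortex and pericycle samples without (-) and with (+) salt. PAP20 and AT5G38030 are high only in cortex with salt, and PMEPCRF is highest in cortex without salt.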

How the data were processed

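RNA of sorted cortex and pericycle cells was hybridised to Affymetrix ATH1 arrays, and the authors deposited 1 table of log2 values for all 11 arrays. The submitters' processing notes name RMA and limma. Their versions, settings and roles are not given in the sources used here, and the scanner files were not used here. The deposited log2 values were taken as they are, and 64 control probe sets were left out. Depth has no meaning for arrays, so the number of arrays limits the precision.

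All 11 arrays were fitted with 1 mean per group in limma 3.58.1 (R 4.3.3, lmFit and eBayes, 7 residual and 2.96 prior degrees of freedom). Contrasts were pericycle minus cortex under salt, the same without salt, and the difference between them. Each adjusted p is Benjamini-Hochberg over 22746 probe sets, called under 0.05. SDs and SEs are on the log2 scale.

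The probe table gave 1 gene for 13513 probe sets, several for 503 and none for 8730, and 13436 matched RefSeq. Symbols exist for 1551, so lists hold few members. A gene was read from its probe set with the highest mean. Named genes were the 10 highest and 10 lowest log2 differences with a symbol, the 6 of each direction known by locus, up to 4 called members of each list (or 2 uncalled ones where none was called) and the 6 of each direction in the difference of differences. Named genes had 1 gene per probe set and, outside the lists, arrays that did not overlap. The members and lists were chosen with earlier results of these data known, and 8 genes matched to a list by symbol alone were left out of it. Alternatives were array weights, a trended robust prior, quantile normalization, dim probe sets left out, 1 probe set per gene, the replicate number as a block, fewer arrays and each array left out. Replicate numbers were checked for pairing through residual correlations, which ran from -0.151 to 0.107 for arrays of the same number, so they were not treated as pairs. A planned count of promoter motifs was not run, and promoter sequences were not used here.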

Additional observations from a re-analysis of the deposited data

Results flagged for a closer look

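For 16 named genes the tissue difference itself differed between salt and control by the limma test of that difference, and the values are log2 changes of pericycle minus cortex from control to salt with adjusted p. Whether each of these calls of a changed difference held in the other settings was not followed gene by gene. The total of 190 such probe sets fell to 53 without cortex salt replicate 3. Cell wall genes were PMEPCRF, a pectin methylesterase (4.89, adjusted p = 0.003), and GH9C2, a glucanase (2.80, adjusted p = 0.00358). Both were higher in cortex without salt and higher in pericycle with it. CML42, calmodulin-like (2.46, adjusted p = 0.027), and TET8, a tetraspanin (1.34, adjusted p = 0.0338), had a negative difference without salt and a positive one with it. The call under salt alone was weak in both. CML42 (log2 0.91) lost it in 13 of 20 other settings, with 0.60 (adjusted p = 0.067) without pericycle salt replicate 1, and TET8 (log2 0.58) lost it in 7. BGLU40, a beta-glucosidase, gained a pericycle excess (2.62, adjusted p = 0.0352).

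Toward cortex, PAP20, an acid phosphatase, changed by -2.51 (adjusted p = 0.0481) and ATG8C, an autophagy gene, by -1.26 (adjusted p = 0.0499). Both lie just under the limit of 0.05.

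The others are known by locus only. AT5G01210 changed by 3.63 (adjusted p = 0.0423), AT3G18560 by 3.36 (adjusted p = 0.00254), AT3G22240 by 3.31 (adjusted p = 0.00254) and AT4G23730 by 2.74 (adjusted p = 0.0123). In each of these 4 the control difference was negative and the salt difference positive. AT5G07330 changed by -3.89 (adjusted p = 0.0289), AT3G52900 by -3.06 (adjusted p = 0.049), AT5G38030 by -2.99 (adjusted p = 0.0103), AT2G27740 by -2.79 (adjusted p = 0.0292) and AT1G67510 by -2.55 (adjusted p = 0.00572). Of these, AT5G07330 turned from higher in pericycle to higher in cortex. AT3G52900, also just under the limit, lost its call under salt (log2 1.36) in 10 of 20 other settings.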

How the results depend on the processing

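Of 161 named genes that passed under salt, 118 were tested and passed in each of 20 other settings, 39 were lost in at least 1, 4 more were lost in none but left untested as dim in 1, and none of the 183 named genes reversed while called. Named genes were mostly picked for large differences, so their counts do not stand for all calls. The salt comparison called 4066 probe sets, of which 2252 stayed called whichever 1 of the 11 arrays was left out. It called 2461 to 5102 with 1 array left out (2461 without cortex salt replicate 1, 2474 without cortex salt replicate 3), and 2017 with 1 probe set per gene, where only 13356 were tested. Without pericycle salt replicate 1 it called 4285. The comparison without salt called 3387, 2258 to 5007 with 1 array left out, and 1718 with 1 probe set per gene. The difference of the differences was less stable. It called 190 (134 toward pericycle with salt, 56 toward cortex), 61 with array weights by group, 72 with 1 probe set per gene, and 53 to 635 with 1 array left out. It called 80, 63 and 101 without cortex control replicates 1, 2 and 3, and 61, 93 and 53 without cortex salt replicates 1, 2 and 3. It called 635 without pericycle control replicate 1, 436 without pericycle salt replicate 1 and 535 without pericycle salt replicate 3. The cause was not tested. With the replicate number as a block, which rests on no pairing in the labels or residuals, the 3 counts were 3730, 2763 and 121, and 4 named genes (DI21, LPR1, TET8, TRM18) were lost. With the 6 salt arrays alone 3094 were called and 24 named genes lost, and with array weights 5192 were called. Quantile normalization gave 3834, 47.2% of them higher in pericycle against 43.4%.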
